A study of Saccharomyces cerevisiae BY4743 with 24 samples.

Results

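The mRNAs of 7 hexose transporters, HXT1 to HXT7, and of invertase, SUC2, were followed through polysome gradients of heat-shocked and unstressed yeast. The 8 genes were taken by name from a deposited expression table that lists 5959 mRNAs, and all 8 had an entry. The cells were Saccharomyces cerevisiae BY4743, a diploid laboratory strain. At 42 °C, cells from a 30 °C mid-log culture had been filtered, resuspended in warm medium and kept there for 30 min. At 30 °C, cells were taken straight from the mid-log culture, so every comparison of temperature also includes the filtration and resuspension. The growth medium was synthetic complete medium with 2% raffinose and 0.005% glucose; the sugar content of the 42 °C medium is not given in the sources used here. Lysates with cycloheximide were run on sucrose gradients and joined into 4 pools, the first 3 of which carry mono, di and tri in their library names. With 3 replicates this gave 24 libraries from 6 gradients. Nothing in the labels says that replicates were separate cultures, so the p-values measure the spread between these samples, which may be technical.

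Raffinose is a trisaccharide. Invertase, the secreted product of SUC2, cuts fructose from it outside the cell, and the plasma membrane proteins of the HXT family carry the hexose inside by facilitated diffusion. The family divides the range of sugar supply between its members: HXT1 and HXT3 encode low-affinity carriers made when glucose is plentiful, HXT2, HXT4, HXT6 and HXT7 encode carriers of higher affinity made when it is scarce, and HXT5 is known for expression in slowly growing, starved or stressed cells. Several of these genes, though not all, are held down by the repressors Rgt1 or Mig1, which answer to the membrane sensors Snf3 and Rgt2 and to the kinase Snf1.

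In the R64 assembly of RefSeq, HXT7, HXT6 and HXT3 lie in a row on chromosome IV. HXT7 (YDR342C) occupies chrIV:1154216-1155928, HXT6 (YDR343C) chrIV:1159608-1161320 and HXT3 (YDR345C) chrIV:1162957-1164660. HXT4 (YHR092C, chrVIII:287081-288811), HXT1 (YHR094C, chrVIII:290913-292625) and HXT5 (YHR096C, chrVIII:294669-296447) form a second row on chromosome VIII. HXT2 (YMR011W) lies alone at chrXIII:288079-289704 and SUC2 (YIL162W) at chrIX:37385-38983. All 8 are protein-coding, and the coding lengths ran from 1599 nt for SUC2 to 1779 nt for HXT5. HXT6 and HXT7 have the same coding length of 1713 nt and are nearly identical in sequence, so they share reads, and the quantification has to divide these between the pair.

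Levels are given as mRNA TPM: deposited transcript abundance rescaled so that the mRNAs of a library sum to 1000000, which removes the rRNA. TPM keeps no read depth, so the depth of each library is unknown. The rRNA took 97.1% to 99.8% of the deposited TPM at 42 °C and 96.1% to 97.7% at 30 °C. The mRNAs together held 1423 to 4016 TPM in pool 1 at 42 °C, 12751 to 27460 TPM in the other pools at 42 °C and 20482 to 37690 TPM at 30 °C. The pool 1 libraries at 42 °C thus had the smallest share of mRNA in the deposited TPM. Spike-in RNA stood at 22.7 to 94.3 TPM in the 8 libraries of replicate 1 and at 246 to 511 TPM in those of replicates 2 and 3, at both temperatures. Between 843 and 1415 mRNAs were at 0 in a library at 42 °C and between 673 and 882 at 30 °C; such a value is called listed at 0, since it may be a failed estimate. In a pool, fewer cells that carry an mRNA and less of that mRNA per cell cannot be told apart.

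The hexose transporter mRNAs exchanged places with heat. At 42 °C HXT5 was the most abundant of the 7 transporter mRNAs in 12 of 12 libraries, and at 30 °C HXT7 was in 12 of 12. HXT5 averaged 97.7 ± 23.9 mRNA TPM at 42 °C and 0.612 ± 0.410 mRNA TPM at 30 °C (mean ± SD of 3 gradients). HXT6 and HXT7 summed averaged 8.21 ± 4.00 mRNA TPM at 42 °C and 422 ± 60.2 mRNA TPM at 30 °C. HXT2 and SUC2, both a minor part at either temperature, also stood lower at 42 °C, while HXT1 and HXT4 were below 1 mRNA TPM in each library. HXT3 averaged 1.53 mRNA TPM at 42 °C and 0.124 at 30 °C.

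**Figure D1:**
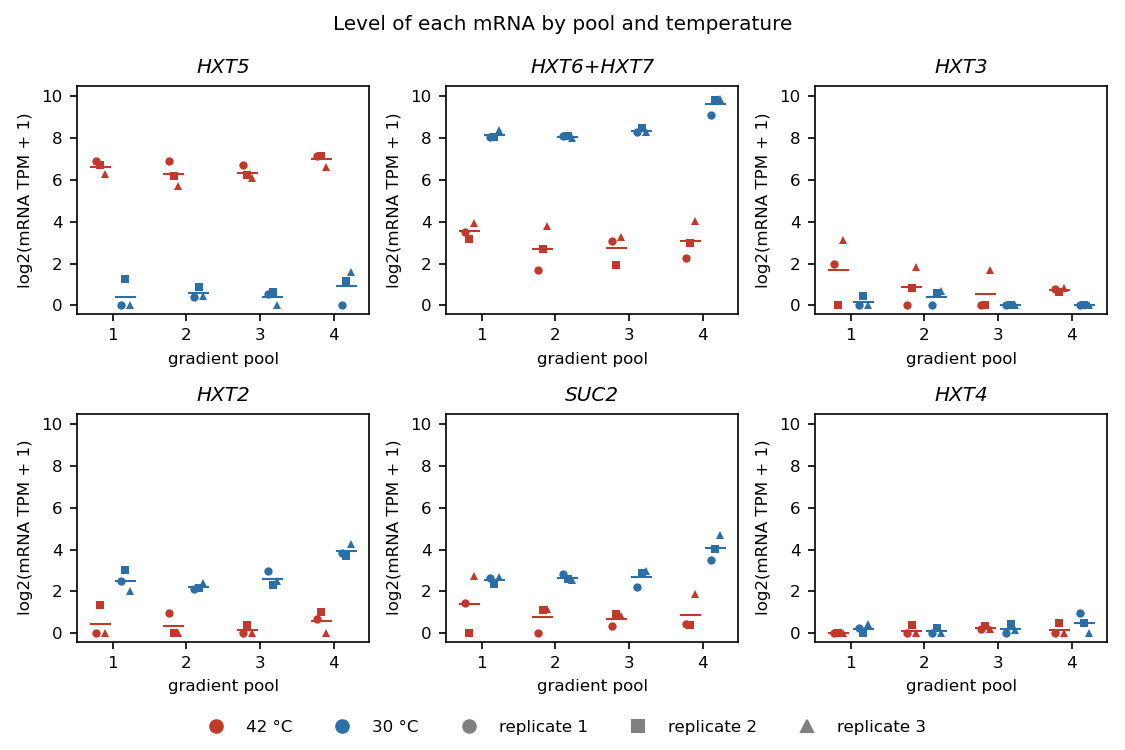
Level of 6 entries in each library, as log2(mRNA TPM + 1), by gradient pool, with 42 °C in red left of 30 °C in blue; symbols are replicates and bars are means of 3. HXT5 is at 51.9 mRNA TPM or above in each library at 42 °C and at 2.05 or below at 30 °C, and the sum of HXT6 and HXT7 lies the other way round in each pool.

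HXT5 was present in every library at 42 °C. Its level there was 119, 104 and 77.2 mRNA TPM for pool 1 (replicates 1 to 3), 120.0, 71.1 and 51.9 for pool 2, 106, 74.6 and 66.6 for pool 3, and 141, 142 and 99.0 for pool 4. At 30 °C it was 0, 1.44 and 0 mRNA TPM for pool 1, 0.342, 0.850 and 0.376 for pool 2, 0.478, 0.579 and 0 for pool 3, and 0, 1.23 and 2.05 for pool 4. The temperatures did not overlap in any pool: the lowest library at 42 °C held 51.9 mRNA TPM and the highest at 30 °C held 2.05. Among the 5959 mRNAs, HXT5 stood 662nd by mean level at 42 °C and 5301st at 30 °C. On the log2(mRNA TPM + 1) scale it rose by 5.97 ± 0.29 SE over the mean of the pools (limma adjusted p = 9.95e-06). That was rank 33 from the top among the 3949 genes tested. HXT5 was among these only through its libraries at 42 °C, which favours a high rank. The pseudocount of 1 understates the change of a gene so near 0, and the ratio of the mean levels was 160-fold, a value that rests on traces at 30 °C. Within replicate numbers 1, 2 and 3 the log2 difference was 6.68, 5.57 and 5.67.

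HXT7 and HXT6, the high-affinity carriers, made up the bulk of the transporter mRNA at 30 °C. At 42 °C HXT7 was at 0 in 8 of 12 libraries, with 10.4 mRNA TPM as its highest value. At 30 °C it held 232, 253 and 286 mRNA TPM for pool 1, 245, 247 and 250.3 for pool 2, 317, 247 and 297 for pool 3, and 550.4, 842 and 840.2 for pool 4. It stood 4319th of 5959 mRNAs by mean level at 42 °C and 295th at 30 °C. HXT6 ran between 0 and 15.5 mRNA TPM at 42 °C, with a median of 3.34, and between 0 and 108 at 30 °C, with a median of 26.2. The temperatures overlapped for HXT6 but not for HXT7.

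How the shared signal was divided differed between the temperatures. In 12 of 12 libraries at 42 °C the whole signal was given to a single gene of the pair: 8 libraries listed HXT7 at 0 and 4 listed HXT6 at 0. At 30 °C, 11 of 12 libraries had both above 0, with HXT6 taking between 0% and 30.4% of the sum and a median of 8.40%. Replicates of 1 group differed in which gene received the signal. In pool 4 at 42 °C, HXT6 held 3.90, 0 and 15.5 mRNA TPM where HXT7 held 0, 6.92 and 0. The single values of either gene at 42 °C are thus uncertain, and the sum of both is used below for the pair.

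**Figure D2:**
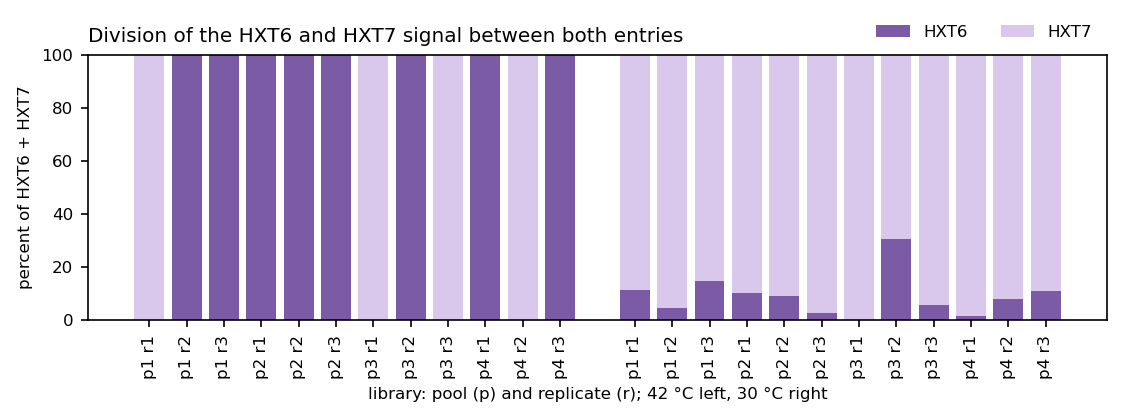
Percent of the summed HXT6 and HXT7 level listed under HXT6 (dark) and HXT7 (light) in each library, with the 12 libraries at 42 °C on the left and the 12 at 30 °C on the right. At 42 °C every bar is a single colour, and at 30 °C HXT6 takes between 0% and 30.4%.

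The sum of HXT6 and HXT7 separated the temperatures in every pool. At 42 °C it was 10.4, 8.15 and 14.4 mRNA TPM for pool 1, 2.21, 5.45 and 12.8 for pool 2, 7.36, 2.77 and 8.68 for pool 3, and 3.90, 6.92 and 15.5 for pool 4. At 30 °C it was 262, 266 and 335 mRNA TPM for pool 1, 273, 271 and 257 for pool 2, 317, 354 and 314 for pool 3, and 559.7, 914 and 943 for pool 4. The highest library at 42 °C, with 15.5, lay far below the lowest at 30 °C, with 257. Fitted as 1 entry, the pair fell by 5.52 ± 0.33 SE on the log2 scale over the mean of the pools (limma adjusted p = 1.89e-05), and the ratio of the mean levels was 51.4-fold lower. Within replicates 1, 2 and 3 the difference was −5.76, −5.92 and −4.89. Fitted apart, HXT7 was at −7.34 ± 0.28 SE (limma adjusted p = 4.70e-06) and HXT6 at −2.54 ± 0.65 SE (limma adjusted p = 0.0112), 2 values that inherit the uncertain division.

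SUC2, whose product releases the fructose, was a scarce mRNA throughout. Its level at 42 °C was 1.72, 0 and 5.69 mRNA TPM for pool 1, 0, 1.19 and 1.21 for pool 2, 0.250, 0.909 and 0.742 for pool 3, and 0.349, 0.301 and 2.62 for pool 4. At 30 °C it was 5.15, 4.11 and 5.36 for pool 1, 6.18, 5.03 and 4.85 for pool 2, 3.63, 6.47 and 6.78 for pool 3, and 10.3, 15.3 and 25.4 for pool 4. The temperatures were separate for pools 2 to 4, whereas the pool 1 replicate 3 library at 42 °C lay above all 3 libraries at 30 °C. Over the mean of the pools SUC2 fell by 2.06 ± 0.37 SE (log2, limma adjusted p = 0.00219). Within replicates 1, 2 and 3 the log2 difference was −2.25, −2.36 and −1.59.

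HXT2, a carrier induced at low glucose, was also scarce. Of the 12 libraries at 42 °C 7 listed it at 0, and its highest value there was 1.54 mRNA TPM. At 30 °C no library was at 0, and the values ran from 3.04 to 18.1 with a median of 4.61. The temperatures did not overlap in any pool. The fall over the mean of the pools was −2.45 ± 0.31 SE (log2, limma adjusted p = 0.00039).

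HXT1, HXT3 and HXT4 did not reach the 10 mRNA TPM in 3 libraries that a gene needed to enter the fit. HXT1, the low-affinity carrier of high glucose, stood at 0 in 11 of 12 libraries at 42 °C and in 12 of 12 at 30 °C; the exception was 0.399 mRNA TPM in pool 1 at 42 °C. HXT4 had its highest value at 0.415 mRNA TPM at 42 °C and 0.957 at 30 °C. HXT3 was listed at 0 in 4 libraries at 42 °C and in 9 at 30 °C, with highest values of 7.72 and 0.624 mRNA TPM. The highest library of each pool at 42 °C was that of replicate 3, with 7.72, 2.58, 2.20 and 0.788 mRNA TPM in pools 1 to 4. In a fit of all genes without the minimum level, HXT3 stood at 0.83 ± 0.37 SE on the log2 scale over the mean of the pools and did not pass (limma adjusted p = 0.097), but in pool 1 it rose by 1.55 (limma adjusted p = 0.0355). The median gene of that fit rose by 0.55 in pool 1, and HXT3 there held 2.98, 0 and 7.72 mRNA TPM at 42 °C. In pools 2 to 4 HXT3 did not pass (limma adjusted p = 0.56, 0.497 and 0.304).

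In the fit, 5 of the 8 genes were tested over the mean of the pools and 5 passed at 5%, with 1 higher and 4 lower, where 63.6% of all 3949 genes tested passed, 31.2% higher and 32.4% lower. The 1233 higher and 1280 lower calls among all genes became 659 and 2149 with TPM as deposited, 592 and 2106 when scaled to 25S rRNA, and 57 and 388 on the spike-in scale, where the median gene stood at −0.20, −0.95 and −1.11. With replicate number as a block, the spike-in scale gave 410 and 2073. Changes with TPM as deposited are shrunk, since the pseudocount of 1 is large beside low deposited levels. The count says little about these genes, because HXT5 met the minimum level through libraries at 42 °C alone, and HXT2 and SUC2 met it only through the 3 libraries of pool 4 at 30 °C. HXT7 reached 10 mRNA TPM in 12 libraries at 30 °C and in 1 at 42 °C, so it too entered through the temperature where it stood high. On the spike-in scale SUC2 did not pass (log2 −2.94, adjusted p = 0.0716) and neither did HXT6 (log2 −3.24, adjusted p = 0.147). The spike-in level itself differs by replicate number, and with that number as a block both passed at the same changes (limma adjusted p = 1.17e-05 for SUC2 and 3.64e-10 for HXT6), so that 5 genes were called.

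The order of the levels shows how far the members lay apart, TPM being a level per length. At 42 °C HXT5 came first and HXT6 second, with gradient means that did not overlap (73.7 to 122 against 1.53 to 10.7 mRNA TPM). The places of HXT6 and HXT7 rest on the uncertain division of their reads; their sum, at 5.83 to 12.8, also lay below HXT5. Below HXT5 each neighbour overlapped the next, from HXT6 through HXT7, HXT3, SUC2, HXT2 and HXT4 to HXT1. At 30 °C HXT7 (336 to 418), HXT6 (16.8 to 53.9) and SUC2 (6.33 to 10.6) lay apart from each other. SUC2 overlapped HXT2 (6.64 to 7.52), HXT2 lay apart from HXT5, and HXT5, HXT4, HXT3 and HXT1 each overlapped the next.

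The exchange went with a smaller sum. HXT1 to HXT7 together held 67.3 to 151 mRNA TPM at 42 °C, with a median of 114, and 262 to 963 at 30 °C, with a median of 322. HXT5 made up 77.2% to 97.4% of that sum at 42 °C and 0% to 0.524% at 30 °C. The share of HXT6 and HXT7 was 1.80% to 18.97% at 42 °C and 96.8% to 99.0% at 30 °C. The lowest HXT5 shares at 42 °C were all in replicate 3, at 77.8%, 77.2%, 85.8% and 85.9% in pools 1 to 4, where the HXT6 and HXT7 sum and HXT3 were also at their highest in each pool.

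**Figure D3:**
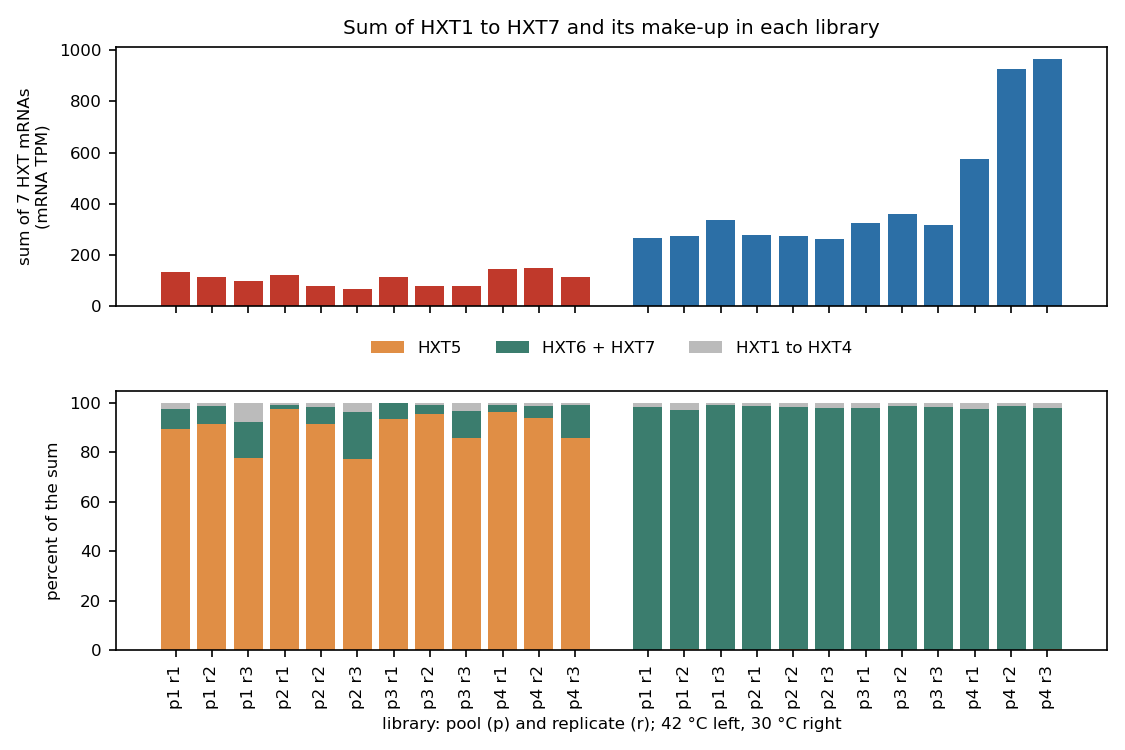
Above, the sum of HXT1 to HXT7 in each library in mRNA TPM; below, the percent of it held by HXT5, by HXT6 with HXT7 and by HXT1 to HXT4, with 42 °C on the left and 30 °C on the right. HXT5 holds at least 77.2% in each library at 42 °C and at most 0.524% at 30 °C.

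Taken pool by pool, the heat change kept its direction. Across pools 1 to 4, HXT5 rose by 6.21, 5.68, 5.94 and 6.06, each ± 0.42 SE (log2, limma adjusted p = 7.84e-10, 3.02e-09, 2.01e-09 and 1.53e-09). These p-values draw on the spread of all 24 libraries without a gradient term, though the pools of a gradient are not independent. With each pool fitted alone, those of HXT5 were weaker (limma adjusted p = 0.000423, 0.00019, 7.55e-05 and 0.00049), and each pool kept its number of genes called. The sum of HXT6 and HXT7 was at −4.61 ± 0.47 SE, −5.35, −5.61 and −6.51 in pools 1 to 4, all past the threshold (limma adjusted p = 1.55e-07, 2.80e-08, 1.88e-08 and 2.12e-09). For HXT2 the values were −2.06, −1.90, −2.47 and −3.37, each past it. On the spike-in scale HXT2 did not pass in any pool (limma adjusted p = 0.157, 0.31, 0.0639 and 0.111). With replicate number as a block it passed there in each (limma adjusted p = 0.0037, 0.0143, 0.000863 and 0.0022). SUC2 was at −1.90, −2.01 and −3.19 in pools 2 to 4, which passed, and at −1.15 in pool 1, which did not (limma adjusted p = 0.09). In pool 1 it passed in 6 of 19 other settings. These included median scaling (−1.85, limma adjusted p = 0.00412), quantile normalization (−1.09, 0.0313), 25S rRNA scaling (−2.21, 0.000538) and TPM as deposited (−0.14, 0.0404). On the spike-in scale SUC2 in pool 1 passed with the replicate block (0.0101) and not without it (0.264). Without replicate 3 at 42 °C, SUC2 in pool 1 was at −1.83 and passed (adjusted p = 0.00614), without replicate 2 at 42 °C it was at −0.45 (adjusted p = 0.488), and without replicate 1 at 42 °C, SUC2 in pool 2 did not (log2 −1.52, adjusted p = 0.0593).

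HXT6 alone, at −2.39, −1.44, −3.02 and −3.30 in pools 1 to 4, did not pass in any single pool in this fit. In other fits of all gradients it passed in pool 4 with replicate number as a block (adjusted p = 0.036), with a pseudocount of 5 (0.0301) and with TPM as deposited (0.0451). It also passed in pool 3 with TPM as deposited (adjusted p = 0.0459), and in pool 1 when scaled to 25S rRNA (0.0303) or to spike-in RNA (0.024). Single gradients moved it far both ways. It lay between −3.17 (without replicate 3 at 42 °C) and −1.20 (without replicate 1 at 42 °C) in pool 1 and between −2.04 (without replicate 3 at 30 °C) and −0.92 (without replicate 1 at 42 °C) in pool 2. It lay between −4.85 (without replicate 1 at 30 °C, adjusted p = 0.007) and −1.47 (without replicate 2 at 30 °C, adjusted p = 0.469) in pool 3. In pool 4 it lay between −4.33 (without replicate 1 at 30 °C, adjusted p = 0.0111) and −2.25 (without replicate 2 at 42 °C, adjusted p = 0.254), and it also passed there without replicate 3 at 42 °C (log2 −4.27, adjusted p = 0.0316). For pool 1, 3 of the 5 genes tested were called, 1 higher and 2 lower, where 56.8% of all genes tested were, 39.7% higher and 17.1% lower. Pools 2, 3 and 4 each had 4 of 5 called, 1 higher and 3 lower. The share of all genes was 52% for pool 2 (33.2% higher, 18.8% lower), 48.9% for pool 3 (20.9% higher, 28.1% lower) and 57.6% for pool 4 (13.8% higher, 43.8% lower). These counts say little about the members. HXT5, HXT7, HXT2 and SUC2 met the minimum level through the temperature where they stood high, HXT2 and SUC2 through pool 4 alone. The median gene itself moved by 0.65, 0.42, −0.24 and −0.94 in pools 1 to 4, so that the larger falls in pool 4 went with a fall of most genes on this scale.

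**Figure D4:**
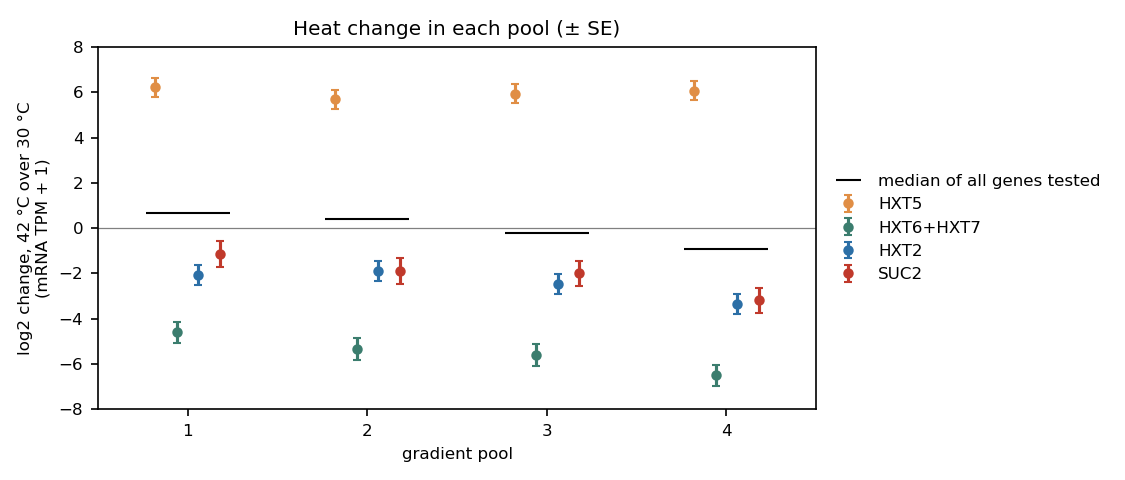
Log2 change in level at 42 °C over 30 °C in each pool for HXT5, the sum of HXT6 and HXT7, HXT2 and SUC2 (points, ± SE, n = 3 libraries per temperature), with the median of the 3949 genes tested as a black bar. HXT5 stays near 6 in each pool, while the other entries and the median gene are lowest in pool 4.

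Where along the gradient the transporter mRNAs lay was compared as pool 4 against pool 1. At 30 °C the sum of HXT6 and HXT7 held 806 ± 213 mRNA TPM for pool 4 and 287 ± 41.2 for pool 1 (mean ± SD, n = 3), a log2 difference of 1.45 ± 0.47 SE (limma adjusted p = 0.0169). HXT2 was 1.42 higher in pool 4 (limma adjusted p = 0.0129) and SUC2 1.54 higher (limma adjusted p = 0.032), while HXT7 alone, at 1.51, did not pass (limma adjusted p = 0.158). The spread behind that p-value is shared by all 8 groups, also those at 42 °C with the uncertain division of reads. At 30 °C HXT7 alone ran from 232 to 286 mRNA TPM in pool 1 and from 550 to 842 in pool 4. HXT2 and SUC2 entered this fit only through pool 4 at 30 °C, which favours such a difference. In the fit of all genes without a minimum level, both also passed (limma adjusted p = 0.00792 for HXT2 and 0.0324 for SUC2). The median gene was 1.18 higher in pool 4 too, and 2 of the 5 genes tested were called, both higher, where 48.5% of all genes were, 47.1% higher and 1.34% lower. With each library scaled to its median gene, the differences were 0.33 for the pair, 0.30 for HXT2 and 0.41 for SUC2, none past the threshold. The calls of SUC2 and of the pair were also lost without any single gradient at 30 °C, with adjusted p = 0.0584, 0.178 and 0.214 for SUC2 and 0.0522, 0.152 and 0.105 for the pair. HXT2 lost its call without replicate 1 (adjusted p = 0.0614) or replicate 3 (adjusted p = 0.203).

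At 42 °C none of the 5 genes tested passed between pool 4 and pool 1 in limma (0 called and 0 at an unadjusted p under 0.05, where 13.1% of all genes were called, 1.7% higher and 11.4% lower). HXT5 held 127 ± 24.6 mRNA TPM for pool 4 and 100.4 ± 21.4 for pool 1 (mean ± SD, n = 3), a log2 difference of 0.34 ± 0.42 SE (limma adjusted p = 0.649). The outcome differed by scale. Per 1000000 TPM of 25S rRNA, HXT5 at 42 °C stood at 1.53 ± 0.326, 2.99 ± 0.707, 5.42 ± 1.08 and 6.90 ± 1.22 (SD, n = 3) along pools 1 to 4. The 25S rRNA itself was uneven there, at 97024, 154593 and 268714 TPM in replicates 1 to 3 of pool 1. In pool 4 at 42 °C it held 449476, 417400 and 400603 TPM. Scaled to 25S rRNA, pool 4 was 2.14 above pool 1 (log2, limma adjusted p = 0.000671), where the median gene was 1.13 above. The pair was at −0.44 on the mRNA sum, which did not pass (limma adjusted p = 0.584), and at 1.10 when scaled to 25S rRNA (limma adjusted p = 0.073).

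The heat change of the pool difference was tested as an interaction. The pair had −1.90 ± 0.66 SE (log2, limma adjusted p = 0.0268) and SUC2 −2.04 ± 0.80 SE (limma adjusted p = 0.0429), both beside a median gene at −1.56. SUC2 entered this fit only through pool 4 at 30 °C, which favours a negative value. Without a minimum level its adjusted p was 0.0412. HXT5 was at −0.15 ± 0.60 SE and did not pass (limma adjusted p = 0.845). Of the 5 genes tested 1 was called, and it was lower, where 48.5% of all genes were called, 0.304% higher and 48.2% lower. Scaled to the median gene, the pair was at −0.14 (adjusted p = 0.956), SUC2 at −0.29 (adjusted p = 0.924) and HXT5 at 1.60 (adjusted p = 0.28). The call of the pair was lost without replicate 1 at 42 °C (adjusted p = 0.0606) and without each of replicates 1, 2 and 3 at 30 °C (adjusted p = 0.0529, 0.127 and 0.0927). The call of SUC2 was lost without the same 4 gradients (adjusted p = 0.114, 0.0582, 0.148 and 0.164).

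The rest of the pathway was read from lists of its parts, with changes over the mean of the pools. Other sugar transporters were at trace levels: 0 of 14 reached the minimum level. The most abundant were MAL31 and MAL11, maltose carriers, and HXT11. MAL31 averaged 1.92 mRNA TPM at 42 °C and 5.56 at 30 °C, MAL11 2.61 and 2.15, and HXT11 1.39 and 0.019. Of 6 disaccharide hydrolases besides SUC2 that are in the table, 0 reached it; IMA2 averaged 1.17 mRNA TPM at 42 °C and 1.27 at 30 °C, IMA1 1.33 and 0.680, and MAL12 0.0138 and 1.57.

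Among the glucose sensors and the Rgt1 branch, 6 of 10 were tested, 3 fell and 0 rose, against 32.4% lower and 31.2% higher among all genes tested. TUP1, part of the general corepressor, averaged 18.3 mRNA TPM at 42 °C and 41.3 at 30 °C and fell by 0.99 ± 0.20 SE (log2, limma adjusted p = 0.00413). YCK2, a membrane casein kinase, was at 0.03 and CYC8, the partner of Tup1, at 0.43, and neither passed. The other falls, named after their values were seen, were those of YCK1 (−0.80) and of MTH1 (−2.88 ± 0.31 SE, limma adjusted p = 0.000174). Mth1 keeps Rgt1 on the HXT promoters when glucose is absent, and its mRNA averaged 1.26 mRNA TPM at 42 °C and 15.6 at 30 °C. STD1, of the same list and also named after its value was seen, went the other way without passing (1.07 ± 0.57 SE, limma adjusted p = 0.138). It averaged 10.1 mRNA TPM at 42 °C and 3.54 at 30 °C. The sensors themselves did not reach the minimum: SNF3 averaged 1.08 mRNA TPM at 42 °C and 2.90 at 30 °C, and RGT2 4.17 and 1.15.

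In the Snf1 and Mig1 branch 8 of 12 were tested, and 3 rose and 1 fell on the mRNA sum, against 31.2% and 32.4% of all genes. With TPM as deposited or scaled to 25S rRNA the count was 0 higher and 4 lower, the 4 being SNF1, SNF4, ADR1 and MIG1, named after their values were seen. GLC7, the catalytic subunit of protein phosphatase 1, rose by 0.81, GAL83, a beta subunit of the Snf1 kinase, by 1.01, and SNF4, its gamma subunit, stood at 0.43 and did not pass (limma adjusted p = 0.0146, 0.0023 and 0.0785). SIP2, another beta subunit named after its value was seen, rose by 1.20. These 3 genes also passed with median scaling, but not with TPM as deposited, 25S rRNA scaling or spike-in scaling. Scaled to 25S rRNA, GLC7 was at −0.22, GAL83 at 0.01 and SIP2 at 0.26, and scaled to spike-in RNA GLC7 was at −0.40, GAL83 at −0.17 and SIP2 at 0.07. MIG1, the repressor itself, also named after its value was seen, fell by 2.00 ± 0.35 SE (limma adjusted p = 0.00199), and fell by 2.76 when scaled to 25S rRNA. On the spike-in scale it did not pass (adjusted p = 0.164), though it did there with replicate number as a block (adjusted p = 5.30e-07).

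Of the 4 kinases that phosphorylate the incoming hexose, 2 fell and 1 rose, against 32.4% and 31.2% of all genes tested. GLK1, the glucokinase, which does not act on fructose, averaged 553 ± 7.84 mRNA TPM at 42 °C and 126 ± 19.4 at 30 °C (mean ± SD of 3 gradients) and rose by 2.44 ± 0.20 SE (log2, limma adjusted p = 5.57e-05). HXK1 averaged 64.7 mRNA TPM at 42 °C and 308 at 30 °C, and HXK2 43.3 and 339; the 2 hexokinases fell by 1.97 and 2.77. EMI2, at 0.65, did not pass. GLK1 also passed with median scaling (log2 2.51), TPM as deposited (1.06) and 25S rRNA scaling (1.40), but not on the spike-in scale without a block (log2 1.21, adjusted p = 0.787). On that scale 0 genes of any list passed at 5% in limma. With replicate number as a block it gave 0 higher and 4 lower of 6 in the sensor and Rgt1 list, 0 and 3 of 8 in the Snf1 and Mig1 list, 1 and 2 of the 4 kinases (GLK1 adjusted p = 0.00814), and RSP5 lower. RSP5, the ubiquitin ligase that marks hexose transporters for uptake and degradation, was the single gene tested of 8 in the list of ligase and adaptors, and it fell by 1.31 ± 0.30 SE (limma adjusted p = 0.00705). The adaptors BUL1 and ALY1 averaged 4.71 and 4.75 mRNA TPM at 42 °C and 2.03 and 2.71 at 30 °C.

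**Figure D5:**
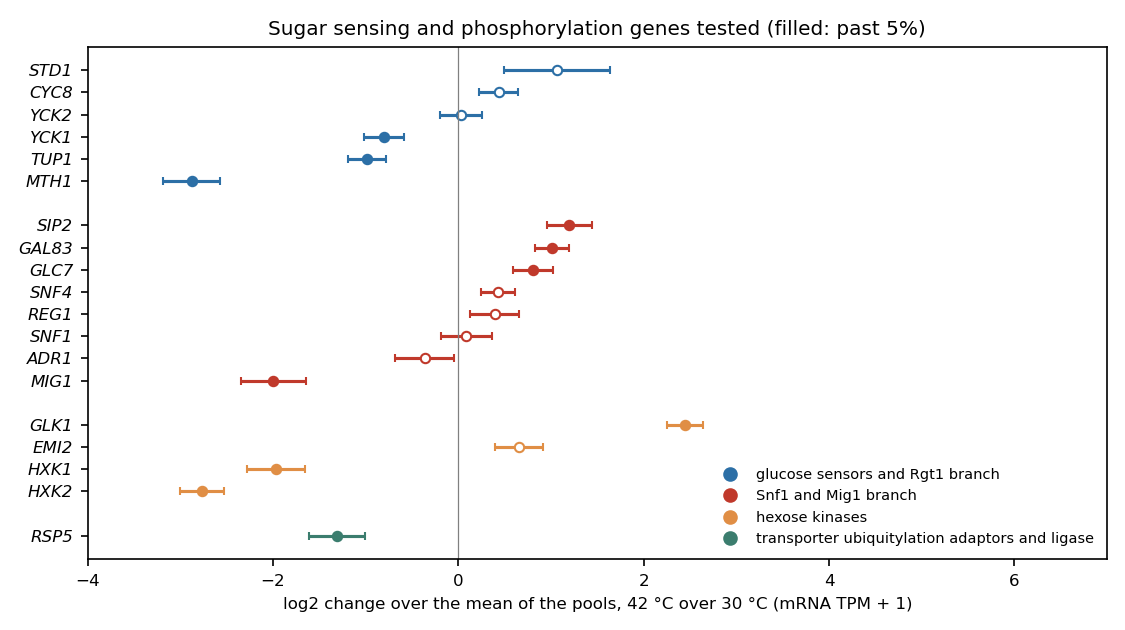
Log2 change over the mean of the pools at 42 °C over 30 °C (± SE, 3 gradients per temperature) for the pathway genes that reached the minimum level, coloured by list; filled points passed 5% in limma and open points did not. MTH1, at −2.88, and HXK2, at −2.77, lie furthest to the left and GLK1, at 2.44, furthest to the right.

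The genes most alike in pattern were named by Pearson correlation of the log2 levels over the 24 libraries, which all share the same 2 temperatures, pools and gradients. HXT5 was most alike to YNL194C, an integral membrane protein of the cell cortex (r = 0.986), and to YRO2, a membrane protein related to Hsp30 (r = 0.985). HXT7 was most alike to SRL1, a cell wall mannoprotein (r = 0.968), and to RNR1, the large subunit of ribonucleotide reductase (r = 0.963). For HXT2 these were CDC33, the cap-binding factor eIF4E (r = 0.955), and SCW10, a cell wall protein (r = 0.950), and for SUC2 LSG1 (r = 0.959) and MRD1 (r = 0.940), both of ribosome assembly. HXT6 reached 0.784 with ARB1 and 0.782 with MAM33. Between the members themselves HXT5 and HXT7 had r = −0.926, and HXT6 and HXT7 r = 0.464; each value of HXT6 or HXT7 alone carries the uncertain division of their reads.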

How the data were processed

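The authors deposited TPM values for 6087 entries (5959 mRNAs, 5 rRNAs, 118 other RNAs and 5 spike-in RNAs) in 24 libraries. The submitters' processing notes name Trim Galore 0.6.5, Salmon 1.9.0 and build R64, with no settings. 3 emptied lines were skipped, 0 value columns lacked a sample, and 6082 of 6082 gene IDs matched the RefSeq table. Each library's group came from its title.

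TPM was rescaled to an mRNA sum of 1000000, a gene entered the tests if 3 or more libraries held 10 mRNA TPM or more (3949, among them 5 of the 8 genes), and limma 3.58.1 under R 4.3.3 fitted the log2 values (pseudocount 1) with a mean-variance trend. P-values are 2-sided, Benjamini-Hochberg adjusted over all genes, at 5%. Heat over the mean of the pools used 6 gradient means, and the other comparisons used 1 fit of 8 groups. HXT6 and HXT7 were refitted as 1 summed entry. The fits were tested on simulated data with independent noise in each library. That checked the mean estimates and cannot judge the p-values where pools share a gradient. Deviations of gradient means with the same replicate number correlated between temperatures at r = 0.142 to 0.191, against −0.150 to −0.0068 for unequal numbers. Those of libraries within a pool did so at r = 0.035 to 0.099, against −0.113 to 0.0206. Replicate number thus paired both levels weakly, and the main fits held no replicate block. All 8 genes are named, with the 3 most abundant genes of each pathway list and the 2 genes most alike to each gene tested. The genes and lists were chosen with earlier results of these data known. Alternatives were other pseudocounts, filters and scales, no trend, blocks, pools fitted alone and each gradient left out. TPM as deposited kept the pseudocount of 1, though SUC2 averaged only 0.0157 TPM as deposited at 42 °C and 0.213 at 30 °C. Changes of low-level genes are therefore shrunk on that scale. The mean of pools 2 to 4 and the spike-in scale with a block were added after the data were seen. Python 3.11.15, numpy 2.4.6, pandas 2.3.3 and matplotlib 3.10.9 were also used.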

Additional observations from a re-analysis of the deposited data

Results flagged for a closer look

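The heat change differed between pool 4 and pool 1, by the interaction test in limma, for the summed HXT6 and HXT7 entry at −1.90 and for SUC2 at −2.04 on the log2 scale. The median of all genes tested was at −1.56 in that comparison, SUC2 entered the fit only through the 3 libraries of pool 4 at 30 °C, which favours this direction, and neither entry passed with each library scaled to its median gene.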

How the results depend on the processing

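Over the mean of the pools, none of the 116 values under other settings (6 entries) changed sign, and 2 lost the call, those of SUC2 and HXT6 on the spike-in scale; both passed there with a replicate block. Of the 5 genes tested 5 were called over that mean, 3 with a filter of 50 mRNA TPM, where only 3 were tested, 3 on the spike-in scale and 5 on it with the block. Among all genes, 1233 higher and 1280 lower calls became 653 and 710 with that filter, 659 and 2149 with TPM as deposited, 592 and 2106 with 25S rRNA 57 and 388 with spike-in scaling, and 410 and 2073 with spike-in scaling and the block. In single pools no value changed sign. A filter of 50 mRNA TPM and the spike-in scale each left 2 genes called in pools 2, 3 and 4 in place of 4, whereas the spike-in scale with a replicate block gave 4 in each, and in pool 1 the 25S rRNA scale and the spike-in scale with a replicate block gave 5 in place of 3. The replicate block kept the 5 calls over the mean of the pools and moved 1 other call, HXT6 in pool 4, to past the threshold (log2 −3.30, adjusted p = 0.036). For pool 4 against pool 1 at 42 °C, TPM as deposited and 25S rRNA scaling each gave 1 call in place of 0. At 30 °C the 2 calls were 0 with a pseudocount of 0.1, a filter of 50 mRNA TPM, median scaling, quantile normalization and spike-in scaling. For the heat change of that difference 1 call became 0 with a pseudocount of 0.1, a filter of 50 mRNA TPM, median, quantile, 25S rRNA and spike-in scaling, 3 with a pseudocount of 5, 4 with TPM as deposited and 2 with HXT6 and HXT7 summed. Leaving out 1 gradient at a time gave 5 calls throughout over the mean of the pools, 3 to 4 in pools 1 and 2, 4 to 5 in pools 3 and 4, 0 to 3 for the pools at 30 °C, 0 at 42 °C and 0 to 2 for the heat change. The gradient as a block changed no call in the pool comparisons.

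Signs turned in the pool comparisons only. The pair at 42 °C was at 0.21 with TPM as deposited, 0.18 with median scaling, 0.22 with quantile normalization, 1.10 with 25S rRNA and 1.45 with spike-in scaling, and its heat change was at 0.35 on the spike-in scale. HXT5 at 30 °C was at −0.63 with median scaling and between −0.063 and 0.80 with 1 gradient left out, lowest without replicate 3 at 30 °C. The heat change of HXT5 was at 0.18 with a pseudocount of 5, 1.63 with TPM as deposited (adjusted p = 3.75e-06), 1.60 with median scaling, 0.72 with quantile normalization, 1.73 with 25S rRNA and 2.40 with spike-in scaling, and between −0.46 and 0.41 with 1 gradient left out, highest without replicate 3 at 30 °C. With TPM as deposited the pseudocount of 1 was large beside HXT5. At 42 °C HXT5 averaged 0.246 TPM as deposited in pool 1 and 2.93 in pool 4, and at 30 °C 0.0105 and 0.0233. Changes on that scale are shrunk most where levels are low, and the HXT5 call there cannot be told apart from this. The causes of the turned signs were not tested. TPM keeps no depth, so how far low values limit HXT1, HXT3 and HXT4 is unknown.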
